A study of Mus musculus with 8 samples.

Results

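Olfactory sensory neurons that express the same odorant receptor send their axons to the same glomeruli of the olfactory bulb, and a small set of adhesion and guidance molecules sorts those axons on the way. The genes described here are 10 such molecules, chosen by name from the deposited table of polysome-associated RNA: Kirrel2, Kirrel3, Nrp1, Nrp2, Plxna1, Plxna3, Sema3a, Sema3f, Robo2 and Sema7a. All 10 were found among the 21765 gene symbols of the table, and all 10 passed the filter on low values (a mean of at least 1 TPM, the length-scaled share of a library's transcripts set to sum to 1000000), as did 16097 genes in all.

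The tissue was mouse main olfactory epithelium, sampled in 8 libraries that form 4 groups of 2. Wild-type (WT) mice were Mex3a flox/flox or Mex3a flox/+ with no Cre named for them, and conditional knockout (cKO) mice were Mex3a flox/flox with a Cre allele, so the floxed allele was shared by both genotypes. Mex3a encodes an RNA-binding protein. Tissue of every group was treated with cycloheximide, which stalls ribosomes on the mRNA, at 100 µg/mL when dissected. Lysates were spun through a sucrose gradient, and fractions 27 to 34 were pooled as early (lighter) polysomes and fractions 35 to 42 as late (heavier) polysomes. Early and late libraries of the same genotype and number carry the name of the same lysate, giving 2 lysates per genotype. Age, sex and the number of mice in a lysate are not given in the sources used here. The p-values measure the spread between libraries of a group or, for lysate means, between the 2 lysates of a genotype. Whether that spread covers differences between mice is not known.

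A transcript in a heavier fraction carries more ribosomes, and a longer coding sequence has room for more of them. Secreted and membrane proteins, which all 10 of these genes encode, are translated at the endoplasmic reticulum. Semaphorin 3A and semaphorin 3F are secreted cues that bind neuropilin 1 and neuropilin 2, and A-type plexins are the signalling partners of the neuropilins. Levels of neuropilin 1 and semaphorin 3A order axons along one axis of the bulb, and those of neuropilin 2 and semaphorin 3F, with the Slit receptor Robo2, along the other. Kirrel2 and Kirrel3 are adhesion molecules of the immunoglobulin superfamily that bind their own kind and vary between neurons with odour-evoked activity. Semaphorin 7A is held in the membrane by a lipid anchor.

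The surroundings of the start codon, where translation begins, are shown for the longest coding transcript of each gene in GENCODE M21 (GRCm38). The 9 bases before the start codon are followed by the start codon and the next base, 5′ to 3′. Capitals mark the base 3 positions before the start codon, the start codon itself and the base after it, the positions that matter most for its recognition. No complete window of this kind could be read from the longest coding transcript of Robo2.
Kirrel2: acactcGggATGC
Kirrel3: cgctgaGgaATGA
Nrp1: cgaaggAggATGG
Nrp2: ctgtcaAaaATGG
Plxna1: cagcccAccATGC
Plxna3: ctgctgGtcATGC
Sema3a: gtctgcAgcATGG
Sema3f: cctcccAcgATGC
Sema7a: ggctgcGggATGA
All 9 contexts have A or G at the position 3 before the start codon, as do 85.1% of 16951 coding genes of the table. A G directly after the start codon is found in 3 of the 9, Nrp1, Nrp2 and Sema3a, against 50.6% of coding genes. Both features together are found in the same 3 genes and in 42.8% of coding genes.

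The libraries were first checked against their labels. Mex3a stood at 97.4 and 115.6 TPM (WT) and 13.9 and 19.8 TPM (cKO) in early polysomes, replicate 1 first here and below. In late polysomes it stood at 93.2 and 95.6 TPM (WT) and 11.1 and 13.8 TPM (cKO). The genotype tag of WT early replicate 2 is that of the cKO, against its title and library name, while its Mex3a level of 115.6 TPM is the highest of all libraries. It was kept as WT, and results that rest on it are also given without it. Markers of mature olfactory neurons (6 genes, Omp among them) summed to between 6459 and 10394 TPM and those of immature neurons (5 genes) to between 2113 and 3199 TPM. None of the 41 marker genes of 9 cell types was at 0 in any library. Whole reads inferred from the steps of the TPM values sum to between 7776792 (cKO late replicate 2) and 12771079 (WT late replicate 2) per library. Between 329 and 9808 reads per library lay behind each value of the 10 genes.

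TPM is scaled by transcript length, so levels can be compared between genes. In WT early polysomes the order was led by Kirrel2, with a mean of 137 ± 6.65 scaled TPM (SD, n = 2), followed by Plxna1 at 110.5 ± 6.10 and Nrp2 at 105.9 ± 12.4, whose libraries overlapped each other. Sema7a (67.0 ± 2.69), Robo2 (63.0 ± 9.73) and Nrp1 (55.7 ± 6.14) formed the next step, each overlapping its neighbour. Below them lay Sema3f (42.2 ± 0.809), Kirrel3 (25.6 ± 0.222), Sema3a (23.6 ± 1.34) and, lowest, Plxna3 (14.8 ± 1.57). In WT late polysomes Plxna1 stood first at 220 ± 20.8 scaled TPM and Kirrel2 second at 165.7 ± 5.84, while Plxna3 (29.6 ± 0.163) remained last. Together the 10 genes made up 0.0561% to 0.0657% of the TPM of an early library and 0.0979% to 0.109% of a late library.

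**Figure D1:**
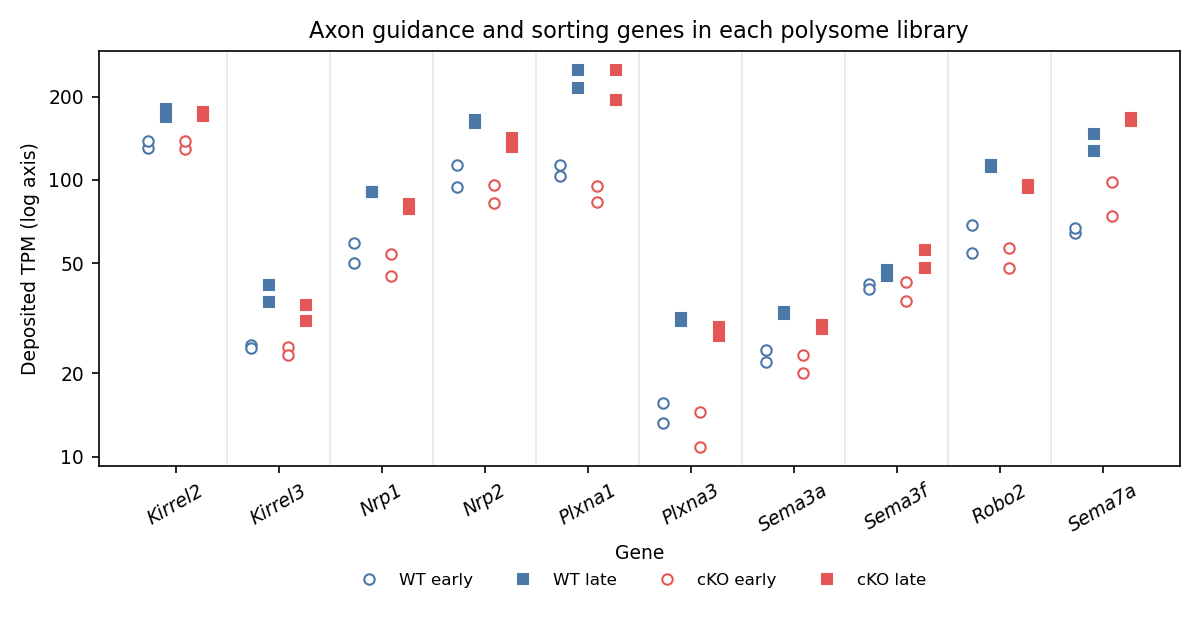
Deposited TPM (vertical log axis) of each of the 10 genes (horizontal axis) in every library: open circles are early and filled squares late polysomes, blue WT and red cKO, with 1 symbol per library. Except for Sema3f, where they lie close together, squares stand clear above circles for each gene, and Sema7a is the gene whose red symbols lie above the blue ones of the same shape in both fractions.

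The comparison of late with early polysomes asked how heavily each transcript was loaded. Averaged over genotypes, 9 of the 10 genes were higher in late polysomes by limma at an adjusted p of 0.05, where 34.3% of all genes tested were higher. The median change of all 10 was 0.56 on the log2(scaled TPM + 1) scale, against a median of -0.011 over all genes. The 9 genes also had all 4 late libraries above all 4 early ones, as had 31.5% of all genes. Sema3f was the exception. Deposited values are relative to the other transcripts of a library, so these are shifts against the rest of the RNA and not absolute amounts.

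The plexins had the steepest change. Plxna1 lies on chromosome 6, 89316314 to 89362620, minus strand (GRCm38). Early libraries of Plxna1 held 113.2 and 103.3 TPM (WT) and 95.1 and 82.9 TPM (cKO). Its late libraries held 214.9 and 249.0 TPM (WT) and 194.8 and 250.4 TPM (cKO). Every late library lay far above every early one. The average change was 1.08 (SE 0.092, adjusted p = 3.04e-05 by limma), or 2.12-fold. Plxna3 (chromosome X, 74329066 to 74344689, plus strand), the other A-type plexin of the set, was much scarcer. Plxna3 was measured at 15.7 and 13.3 TPM (WT) and 14.5 and 10.8 TPM (cKO) in early polysomes. In late polysomes its level was 30.9 and 31.6 TPM (WT) and 29.4 and 27.3 TPM (cKO). Its average change was 0.98 (SE 0.105, adjusted p = 7.38e-05), so the scarcer plexin moved about as far as the abundant one. An antisense gene overlaps 970 of the 9054 exonic bases of Plxna1, and whether reads were counted by strand is not given in the sources used here.

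Sema7a (chromosome 9, 57940112 to 57962865, plus strand) came next. For Sema7a the early values were 64.2 and 67.0 TPM in WT against 98.2 and 74.0 TPM in cKO. The late values were 127.4 and 146.4 TPM in WT against 163.0 and 166.8 TPM in cKO. The average change was 0.88 (SE 0.093, adjusted p = 6.88e-05), and the lysates ranged from 1.57 times (cKO lysate 1) to 2.00 times the early level (WT lysate 2 and cKO lysate 2). Its fractions did not overlap. Robo2 (chromosome 16, 73891839 to 74411825, minus strand) is a receptor for Slit repellents. Early libraries of Robo2 held 68.9 and 54.6 TPM (WT) and 56.7 and 48.2 TPM (cKO). Its late libraries held 113.6 and 111.7 TPM (WT) and 93.7 and 96.0 TPM (cKO). Late libraries of both genotypes lay above all early ones. The average change of Robo2 was 0.74 (SE 0.087, adjusted p = 0.000115).

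The neuropilins moved by similar amounts. Nrp1, the semaphorin 3A receptor, lies on chromosome 8, 128358604 to 128503363, plus strand. Nrp1 was measured at 59.3 and 50.0 TPM (WT) and 54.1 and 44.8 TPM (cKO) in early polysomes. In late polysomes its level was 90.7 and 90.7 TPM (WT) and 82.0 and 78.5 TPM (cKO). Nrp2, the semaphorin 3F receptor, lies on chromosome 1, 62703285 to 62818695, plus strand. For Nrp2 the early values were 113.2 and 94.5 TPM in WT against 95.8 and 82.2 TPM in cKO. The late values were 165.0 and 160.9 TPM in WT against 131.1 and 142.2 TPM in cKO. Late libraries stood above early ones without overlap for both receptors. The average change was 0.59 (SE 0.083, adjusted p = 0.000295) for Nrp1 and 0.52 (SE 0.079, adjusted p = 0.000479) for Nrp2.

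Their secreted ligands moved less. Sema3a lies on chromosome 5, 13125414 to 13602565, plus strand. Early libraries of Sema3a held 24.3 and 22.1 TPM (WT) and 23.2 and 20.1 TPM (cKO). Its late libraries held 33.4 and 32.7 TPM (WT) and 30.01 and 28.8 TPM (cKO). Every late library lay above every early one, by 0.35 on average (SE 0.078, adjusted p = 0.00389). Sema3f lies on chromosome 9, 107681500 to 107710475, minus strand. Sema3f was measured at 42.2 and 40.5 TPM (WT) and 42.8 and 36.6 TPM (cKO) in early polysomes. In late polysomes its level was 44.9 and 47.3 TPM (WT) and 47.9 and 55.6 TPM (cKO). After scaling, late and early libraries overlapped, and the change of 0.15 (SE 0.076, adjusted p = 0.109) did not pass. With TPM used as deposited, where the median of all genes itself stood at 0.087, Sema3f had 0.26 (adjusted p = 0.0204). Its adjusted p ran from 0.0204 to 0.297 over the alternatives.

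The adhesion molecules differed in level more than in their change between fractions. Kirrel2 lies on chromosome 7, 30447534 to 30457690, minus strand. For Kirrel2 the early values were 130.5 and 137.8 TPM in WT against 129.2 and 138.1 TPM in cKO. The late values were 169.4 and 180.4 TPM in WT against 176.7 and 170.7 TPM in cKO. Kirrel3 lies on chromosome 9, 34485894 to 35036716, plus strand. Early libraries of Kirrel3 held 25.4 and 24.7 TPM (WT) and 24.97 and 23.2 TPM (cKO). Its late libraries held 36.2 and 41.8 TPM (WT) and 30.9 and 35.3 TPM (cKO). Both were higher in late polysomes without overlap, Kirrel2 by 0.26 (SE 0.068, adjusted p = 0.00822) and Kirrel3 by 0.41 (SE 0.077, adjusted p = 0.00145).

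Within genotypes, 9 of the 10 genes passed in WT, where 27.1% of all genes were higher in late polysomes, and 8 in cKO, where 28.9% were. The median change of all 10 was 0.58 in WT and 0.53 in cKO. Sema3f did not pass in WT (0.048, SE 0.11, adjusted p = 0.729) or in cKO (0.25, SE 0.11, adjusted p = 0.0732). Kirrel2 passed in WT (0.27, adjusted p = 0.0401) and had 0.25 in cKO (adjusted p = 0.0517). Pairing early and late libraries by lysate ended 2 calls: Kirrel2 in WT then stood at an adjusted p = 0.0705 (range over all alternatives 0.00874 to 0.177), and Kirrel3 in cKO, at 0.32, at 0.0583 (range 0.0121 to 0.152). Sema3a passed narrowly in both genotypes (adjusted p = 0.0166 in WT and 0.0414 in cKO). Without WT early replicate 2, the library with conflicting tags, 9 genes still passed on average, while Kirrel2 (adjusted p = 0.0771) and Sema3a (0.0994) did not pass in WT, nor Kirrel3 (0.0504) and Sema3a (0.0539) in cKO. The call of Kirrel2 in WT ended without any 1 WT library. The call of Sema3a in WT ended without either WT late library or WT early replicate 2, and its call in cKO without any 1 library but cKO early replicate 1. That of Kirrel3 in cKO ended without any 1 early library or cKO late replicate 2. Where a WT library was left out, the changes in cKO stayed at 0.31 (Sema3a) and 0.32 (Kirrel3), since they use no WT value, and the pooled spread was estimated from fewer libraries. Over the alternatives the adjusted p of Sema3a ranged within 0.00538 to 0.0994 (WT) and 0.0116 to 0.212 (cKO).

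**Figure D2:**
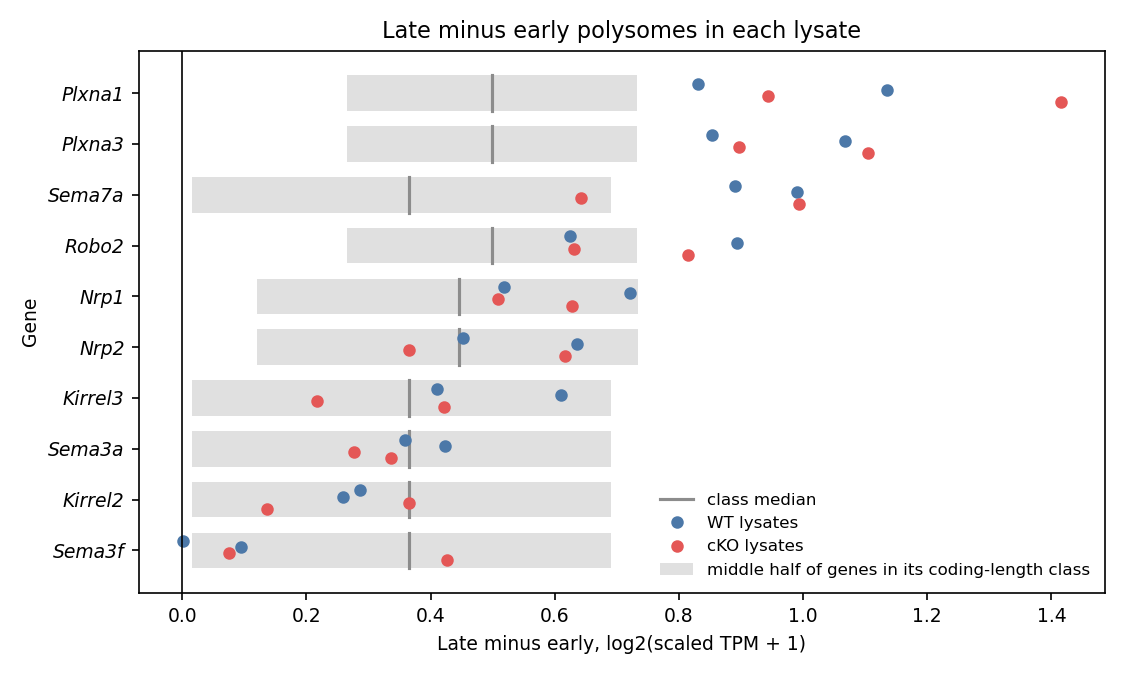
Late-minus-early difference of log2(scaled TPM + 1) (horizontal axis) for each gene in each of the 4 lysates (blue WT, red cKO), over a grey bar from the lower to the upper quartile of all genes of the same coding-length class and a line at the class median. Both plexins lie right of their bar in all 4 lysates, Sema7a in 3 of them, and Sema3f lies nearest 0 in the lysates other than cKO lysate 2.

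Coding length was set beside these changes, since the late-minus-early change of all genes climbed with it. Coding genes tested were divided into 10 classes of equal number by their longest coding sequence, whose median change ran from -1.12 in the shortest class to 0.50 in the longest. Plxna1 (5682 nt) and Plxna3 (5616 nt) belong to the longest class, and their changes exceeded those of 94.8% and 91.4% of its 1469 genes. Robo2 (4536 nt), in the same class, exceeded 76.1%. Nrp1 (2769 nt) and Nrp2 (2793 nt) lay near the middle of class 9 of 10, above 63.2% and 57.3% of its genes.

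The remaining 5 genes share class 8, with a median change of 0.37 and quartiles of 0.015 and 0.69. Sema7a has the shortest coding sequence of the set (1992 nt) and yet exceeded 87.1% of the 1468 genes in its class. Kirrel3 (2331 nt), Sema3a (2316 nt) and Kirrel2 (2100 nt) lay near the class median, above 54.4%, 49.0% and 42.6% of genes. Sema3f (2355 nt) exceeded 33.6%, staying within the middle range of its class. Of the 5 genes in this class, Sema7a and Sema3f stood furthest apart, 0.51 above and 0.22 below the class median. In the longest class, Plxna1 and Plxna3 stood 0.58 and 0.48 above the median of that class. These are descriptions with no test.

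**Figure D3:**
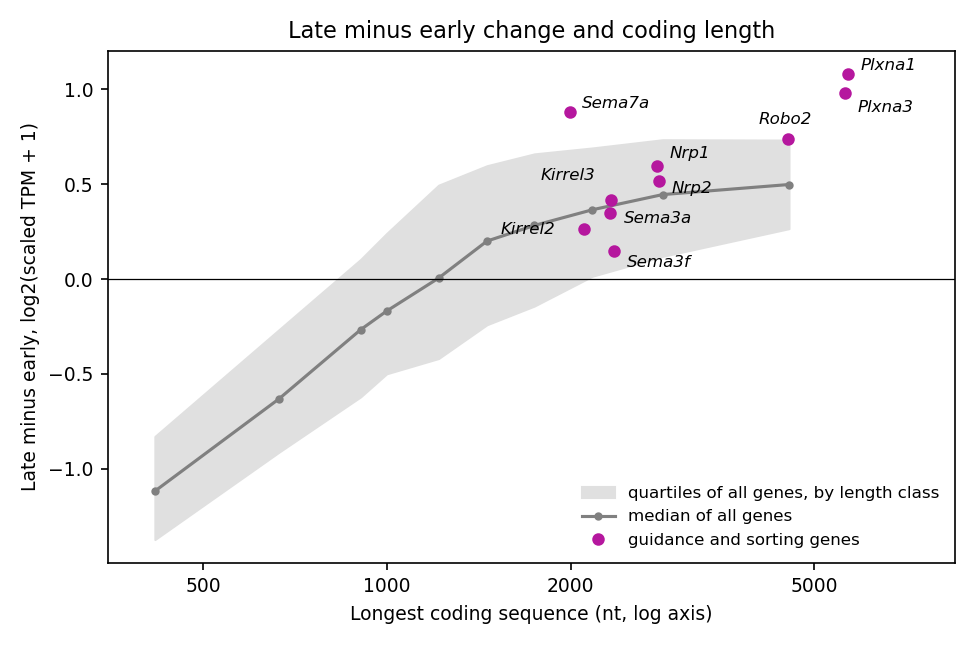
Late-minus-early change averaged over genotypes (vertical axis, log2(scaled TPM + 1)) against the longest coding sequence in nucleotides (horizontal log axis): the grey line and band give the median and quartiles of all genes in 10 length classes, plotted at each class's median length, and purple points are the 10 genes. Sema7a lies well above the band, as do Plxna1 and Plxna3 just beyond its right end, Robo2 lies at its upper edge, and Sema3f is the gene farthest below the line.

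The comparison of cKO with WT asked whether loss of Mex3a changed these transcripts on polysomes. By limma 0 of the 10 genes passed in early polysomes (0.0435% of all genes passed), 0 in late polysomes (0.0124%) and 0 on the mean of both fractions per lysate (0.00621%). The 1 gene that passed on lysate means was Mex3a itself, at -2.67 log2 (adjusted p = 0.0227 by limma). With 2 lysates per genotype, much smaller differences could go uncalled. At an unadjusted p under 0.05 stood 1 gene of the 10 in early polysomes (6.64% of all genes), 1 in late polysomes (9.36%) and 2 when fractions were averaged (11.3%). A test with voom on inferred whole reads also called 0 of the 10 in each. Of the 10 genes, 7 were lower and 3 higher on lysate means, with a median of -0.10 log2. In whole tissue, fewer cells of a type and less RNA per cell cannot be told apart.

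Sema7a had the largest difference of the set in each of the 3 comparisons. Its cKO libraries lay above its WT libraries in early polysomes (98.2 and 74.0 against 64.2 and 67.0 TPM) and in late polysomes (163.0 and 166.8 against 127.4 and 146.4 TPM). Of all genes tested, 6.57% stood higher in cKO without overlap in both fractions, and Sema7a was the only one of the 10 to do so. The difference was 0.43 log2 in early (SE 0.13, adjusted p = 0.672), 0.31 in late (SE 0.13, adjusted p = 0.524) and 0.37 on lysate means (95% interval 0.14 to 0.60, adjusted p = 0.359). It stayed positive in every alternative run for the 3 comparisons, from 0.27 to 0.47 on lysate means, and its adjusted p there ran from 0.0942 to 0.942. Because the genotypes did not overlap in either fraction, leaving out libraries could not make the difference negative. Without WT early replicate 2 the difference in early polysomes was 0.47.

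The receptors leaned the other way without passing. Nrp2 had -0.19 log2 on lysate means (95% interval -0.38 to -1.05e-05, adjusted p = 0.441) and Robo2 -0.19 (interval -0.40 to 0.025, adjusted p = 0.473). Both had all cKO late libraries below all WT late libraries, Nrp2 at 131.1 and 142.2 against 165.0 and 160.9 TPM, and Robo2 at 93.7 and 96.0 against 113.6 and 111.7. In early polysomes the 2 genotypes overlapped for both genes after scaling. Plxna1 had -0.13 on lysate means (interval -0.29 to 0.036), Plxna3 -0.12 (interval -0.40 to 0.16) and Nrp1 -0.11 (interval -0.33 to 0.11). In late polysomes 6 of the 10 genes lay lower in cKO without overlap (Kirrel3, Nrp1, Nrp2, Plxna3, Sema3a and Robo2) and 2 higher (Sema3f and Sema7a), where 20.1% of all genes lay lower and 20.5% higher in that way. In early polysomes 1 lay lower (Plxna1) and 1 higher (Sema7a), where 17.6% of all genes lay lower and 19.6% higher.

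Kirrel2 was the gene with the smallest difference on lysate means, 0.04 log2 (95% interval -0.12 to 0.20, adjusted p = 0.845), with early libraries at 129.2 and 138.1 TPM in cKO against 130.5 and 137.8 in WT. Kirrel3 had -0.10 (interval -0.28 to 0.094), Sema3a -0.081 (interval -0.30 to 0.13) and Sema3f 0.097 (interval -0.068 to 0.26). These intervals allow changes of either sign.

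**Figure D4:**
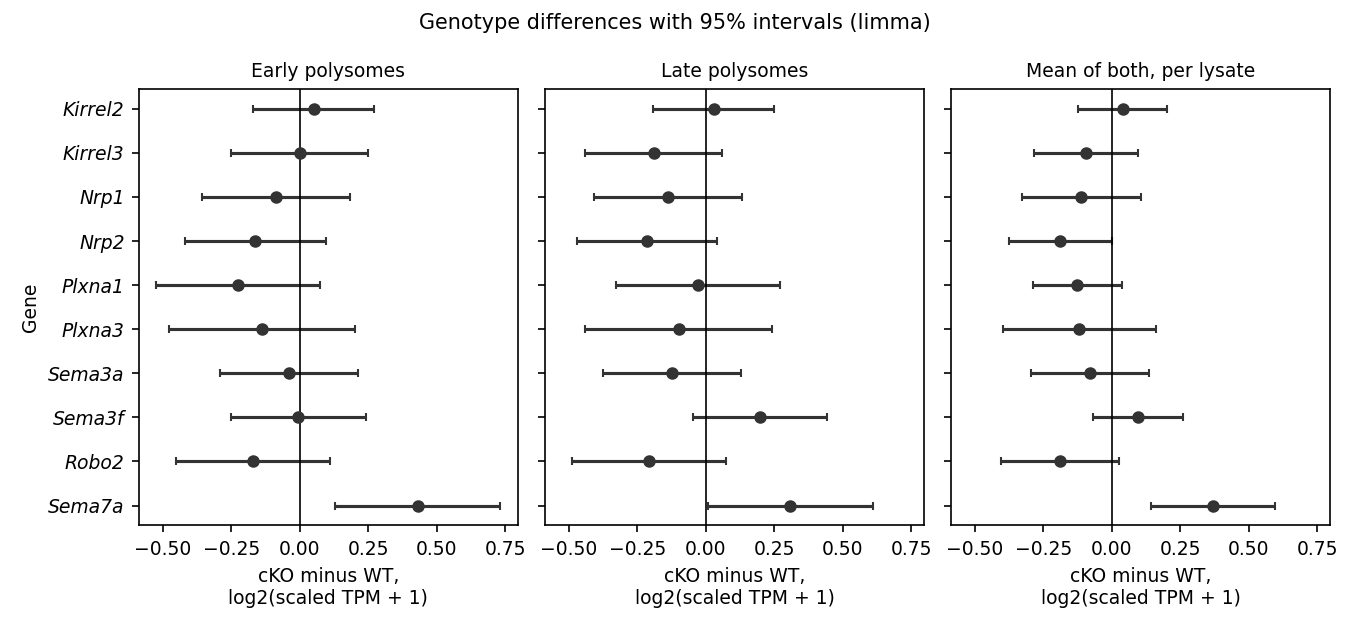
Difference of cKO and WT in log2(scaled TPM + 1) (horizontal axis) for each gene in early polysomes, late polysomes and the mean of both per lysate, with 95% intervals from limma. On lysate means the interval for Sema7a, from 0.14 to 0.60, lies clear of 0 and that for Nrp2 just touches it, before adjustment over all genes.

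Markers of other cells that could contribute were set beside these differences. Olfactory ensheathing glia, which wrap the axons and were represented by 6 markers, summed to 854 and 679 TPM (WT) and 667 and 603 TPM (cKO) in early polysomes. In late polysomes they summed to 850.0 and 706 TPM (WT) and 588 and 605 TPM (cKO). Fabp7 made up most of these sums and was lower in both cKO libraries of each fraction. Without it the other 5 markers summed to 143 and 133 TPM (WT) and 144 and 134 TPM (cKO) in early polysomes, and to 171 and 168 TPM (WT) and 143 and 167 TPM (cKO) in late polysomes. Of the 6 markers, 3 were higher in cKO in early polysomes, 1 in late polysomes and 1 on lysate means, with 0 called by limma. Mature neuron markers (6 genes) had a median of -0.091 on lysate means with 0 called, and immature neuron markers (5 genes) -0.18 with 0 called. Markers of Bowman's glands (4 genes) had a median of 0.21, with 3 higher in cKO and 0 called. Globose basal, endothelial and fibroblast markers (4 genes each) were all higher in cKO on lysate means, with medians of 0.057, 0.035 and 0.049. Horizontal basal cell markers (4 genes) had a median of -0.076 with 1 higher, and sustentacular cell markers (4 genes) 0.067 with 2 higher. In each of these types 0 were called. The part of these cells in the values of Sema7a, Nrp2 or Robo2 was not tested.

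The interaction asked whether the change between fractions differed between genotypes. By limma 0 of the 10 genes passed (0.00621% of all genes), 0 had an unadjusted p under 0.05, and voom also called 0. The largest estimates were 0.20 log2 for Sema3f (95% interval -0.14 to 0.55) and for Plxna1 (interval -0.23 to 0.62), and -0.19 for Kirrel3 (interval -0.54 to 0.16). For Sema3f, cKO lysate 2 gave a late level 1.35 times the early level, while the other lysates gave 1.00 to 1.07 times.

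Ratios of paired molecules within a library do not depend on scaling between libraries. The level of Kirrel2 was 5.14 and 5.57 times (WT) and 5.17 and 5.95 times (cKO) that of Kirrel3 in early polysomes, and 4.68 and 4.32 times (WT) and 5.71 and 4.84 times (cKO) in late polysomes. In WT the ratio was lower in both late libraries than in both early ones, and in cKO the fractions overlapped. The ratio of Nrp2 to Nrp1 stayed between 1.60 and 1.91 in all 8 libraries. Plxna1 exceeded Plxna3 by 6.57 to 9.17 times, and cKO late libraries held both 6.62 and 9.17. The ratio of Sema3f to Sema3a was 1.74 and 1.83 (WT) and 1.84 and 1.82 (cKO) in early polysomes, and 1.35 and 1.45 (WT) and 1.60 and 1.93 (cKO) in late polysomes. Both WT late libraries lay below every other library. These ratios were not tested.

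**Figure D5:**
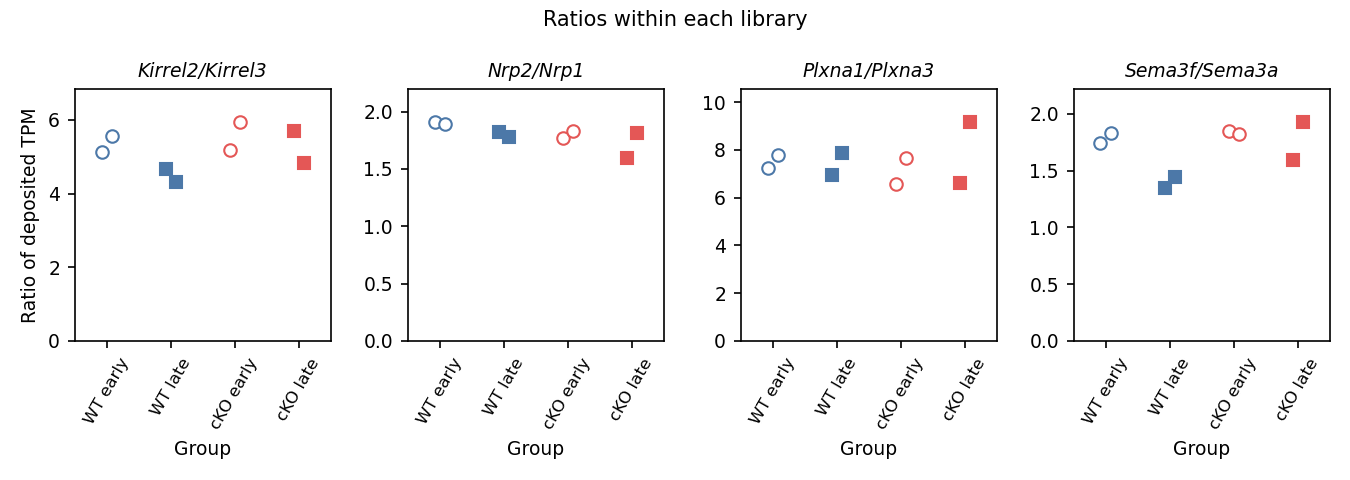
Ratio of deposited TPM (vertical axis from 0) for 4 pairs of related molecules in each group (horizontal axis), with 1 symbol per library: open circles early, filled squares late, blue WT, red cKO. The Sema3f to Sema3a ratio of WT late libraries, 1.35 and 1.45, lies below the other groups, and the Nrp2 to Nrp1 ratio varies least.

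Other guidance genes gave a wider frame. Of 82 listed genes 80 were tested, and averaged over genotypes 55 were higher and 7 lower in late polysomes, with a median of 0.52 log2. All 7 other plexins were higher (median 1.03), as were 5 of 5 tested Slits and Robos (0.74), 4 of 5 other secreted semaphorins (0.51), 8 of 12 membrane semaphorins (0.43) and 14 of 18 adhesion molecules (0.72). Of 15 ephrins and Eph receptors 5 were higher and 5 lower, near the shares over all genes (34.3% higher and 34.6% lower). The largest rises were those of Plxnb2, a B-type plexin (1.53, SE 0.12, adjusted p = 2.63e-05), Dpysl5, a collapsin response mediator (1.27, SE 0.082, adjusted p = 1.88e-05), and Tenm2, a teneurin (1.23, SE 0.13, adjusted p = 6.69e-05). The largest falls were those of the chemokine Cxcl12 (-1.09, SE 0.078, adjusted p = 2.00e-05) and the ephrins Efna2 (-1.05, SE 0.19, adjusted p = 0.0014) and Efna4 (-0.98, SE 0.094, adjusted p = 4.54e-05). Efna2 rested on 29 to 114 reads per library and Efna4 on 45 to 145. Coding lengths of these other genes were not set beside their changes. Over all genes the median ran from -1.12 in the shortest coding-length class to 0.50 in the longest. The part of length in the differences between these families was not tested.

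Between genotypes 0 of the 80 passed in early, late or lysate-mean comparisons or in the interaction by limma, with 7, 10, 13 and 2 at an unadjusted p under 0.05 (6.64%, 9.36%, 11.3% and 2.85% of all genes). The lowest unadjusted p on lysate means belonged to Pcdh10, a protocadherin with a part in axon targeting, at -0.40 (SE 0.083, adjusted p = 0.328 by limma), and to Efna4 at 0.45 (SE 0.098, adjusted p = 0.340). Pcdh10 was at 14.8 and 13.9 TPM (WT) and 11.1 and 9.48 TPM (cKO) in early polysomes, and at 30.6 and 34.0 TPM (WT) and 21.7 and 25.4 TPM (cKO) in late polysomes, lower in cKO without overlap in each. It passed with voom on inferred reads (-0.50, adjusted p = 0.0391), and its adjusted p ranged up to 0.919 over the alternatives.

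Genes whose 8 library values ran closest to a member's, centred on each gene's own mean, were sought among genes of at least 5 scaled TPM. The 10 members themselves and genes with placeholder symbols (such as those ending in Rik) were left out of this search. Nrp1 was followed most closely, by PcdhgCon at a root mean square difference of 0.023 log2 and by Cd36 at 0.03. Robo2 was nearest to Ehmt1 (0.028), Plxna3 to Eif3c (0.031), Nrp2 to Ppp1r12a (0.034), Kirrel2 to Mtmr10 (0.04), Kirrel3 to Nup153 (0.041) and Plxna1 to Dock5 (0.05). Sema7a had the least close match of the 10, Ssh3 at 0.079. Close genes had late-minus-early changes near the member's own, such as 0.61 for PcdhgCon and 0.59 for Nrp1. Many genes were searched, and whether such closeness is unusual was not tested.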

How the data were processed

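Per the labels' protocols, about 42 gradient fractions of 350 µL were collected, 50 µL of each was pooled, and stranded total RNA libraries were made with a low-input kit. The authors deposited 1 table of TPM, each column summing to 1000000. FastQC, cutadapt, STAR, DESeq2 and mm10 are named in the submitters' processing notes, with no role; the counting method and annotation are not given in the sources used here. The Cre line is not reported here. The series' design text describes sorted cells with other transgenes, which the sample labels do not name. Groups and numbers came from sample titles.

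Median-ratio factors (0.931 to 1.06) scaled the TPM. For 16097 genes with a mean TPM of at least 1, limma 3.58.1 (R 4.3.3) with a mean-variance trend was run on log2(scaled TPM + 1). All 4 groups were fitted together, and genotype also on lysate means. P-values were two-sided and adjusted over all genes tested by the Benjamini-Hochberg method, at 0.05. Fold changes on this scale understate those of low genes. The code was tested on simulated data. Read numbers were inferred as the smallest whole multiples that match the TPM steps (19783 genes detected in 2 or more libraries, 100.0% whole within 0.001). These show depth and fed voom, an alternative test.

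Early and late libraries of a lysate pair by their library name. The correlation over genes of their deviations from group means was 0.0862 (WT) and 0.0502 (cKO).

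The members and lists were chosen with earlier results of these data known. Named were all 10 members, Mex3a, 3 other guidance genes with the largest change in each direction between fractions, any that passed between genotypes (otherwise the 2 of lowest p), and for likeness up to 2 genes per member (those of Sema3a and Sema3f are not reported here). Positions and coding lengths came from GENCODE M21 on GRCm38, the assembly of mm10, which may not be the authors' annotation. Alternatives were pseudocounts of 0.1 and 0.5, no filter or a mean TPM of at least 5, no scaling, quantile normalization, no trend, leaving out libraries or lysates, replicate blocks, only the 4 libraries compared, and voom. Figures were drawn with matplotlib 3.10.9.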

Additional observations from a re-analysis of the deposited data

How the results depend on the processing

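Over all alternatives run, 9 to 10 of the 10 genes passed between late and early polysomes on average, 7 to 9 in WT and 6 to 10 in cKO, and 0 in each genotype comparison and in the interaction. Of 1190 values of single genes under alternatives, 27 lost a call, 7 gained one and 37 changed sign, none of them past the threshold and none for late against early. With TPM as deposited Kirrel2 had -0.0058 in early polysomes, -0.0094 in late polysomes and -0.0076 on lysate means. In early polysomes Kirrel3 had 0.014 and Sema3f 0.0024 with quantile normalization, and Kirrel3 had 0.00077 with voom. The others came from leave-one-out fits. In early polysomes their ranges were -0.013 to 0.11 for Kirrel2, -0.036 to 0.036 for Kirrel3, -0.20 to 0.032 for Nrp1, -0.32 to 0.044 for Plxna3, -0.12 to 0.045 for Sema3a and -0.10 to 0.090 for Sema3f. In late polysomes they were -0.022 to 0.080 for Kirrel2 and -0.18 to 0.13 for Plxna1. On lysate means they were -0.0025 to 0.082 for Kirrel2 and -0.25 to 0.011 for Plxna3. For the interaction they were -0.085 to 0.041 for Kirrel2, -0.17 to 0.067 for Nrp1, -0.17 to 0.066 for Nrp2, -0.14 to 0.22 for Plxna3, -0.19 to 0.12 for Robo2, -0.31 to 0.064 for Sema7a and, beside the members, -0.50 to 0.017 for Mex3a. Pairing by lysate as a replicate block changed no member's call but those of Kirrel2 in WT and Kirrel3 in cKO (0.32, adjusted p = 0.0583), and a replicate block on the number shared by WT and cKO, which no label ties to a batch (deviations of same-numbered libraries correlated over genes at 0.331 in early and 0.142 in late polysomes), called 0 of the 10 genes. Counts over all genes moved by over 1.5 times as follows. Late against early in WT, 8824, became 5874 without WT early replicate 2. In early polysomes 7 became 11 with no filter, 4 with a mean TPM of at least 5, 0 with only the 4 libraries, 20 with voom, and 0 to 4 without any 1 early library. In late polysomes 2 became 1 with only the 4 libraries, the stricter filter or a pseudocount of 0.1, and 4 with no filter, 5 without a trend, 15 with voom, and 0 to 13 in leave-one-out fits. On lysate means 1 became 0 with no filter or no trend, 82 with the number as a replicate block, 58 with voom and up to 10 without a lysate. For the interaction, 1 became 6 unfiltered, 0 with a mean TPM of at least 5 or voom, 2 without a trend and up to 7 without a library. The cause was not tested. The 10 genes had at least 329 reads in every library, and each genotype had 2 lysates.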
